A study of Homo sapiens with 8 samples.

Results

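Heat shock proteins, the heat shock factor HSF1 and the BAG co-chaperones were followed in MOLM14, an established cell line of human acute myeloid leukaemia. Members were taken from the platform annotation by symbol: the HSPA, HSPB, HSPD, HSPE, HSPH, HSP90, DNAJA, DNAJB and DNAJC families, HSF1, HSF2 and BAG1 to BAG6, without antisense transcripts and pseudogenes. This gave 22 of the 14884 genes named on the array, or 22 of 79 protein-coding genes that carry such a symbol in RefSeq. They comprised 11 of 14 HSPA genes, 3 of 7 HSPB genes, HSPD1, HSPH1, HSF1 and 5 of 6 BAG genes. HSPA8, HSPE1 and HSF2 were not among them, so the families are covered in part only. None of the 44 DNAJ genes and none of the 3 HSP90 genes had a named probe set, so the DNAJ co-chaperones themselves are not analysed here. By compartment, 20 members act in the cytosol or nucleus and 2 in the mitochondrion, and 0 of 14 candidates of the endoplasmic reticulum (ER) were named.

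One group of 4 arrays came from cells with a hairpin RNA against ENTPD1 (shCD39), which encodes CD39, an enzyme that splits extracellular ATP and ADP. The other 4 arrays came from cells with a scrambled hairpin (shCTRL). Both groups received doxycycline for 72 h to switch on the hairpin, and the labels describe the cells of both groups as AML clones. The labels number the arrays of each group as technical replicates, so every p-value below reflects the spread among arrays, which may be technical. The question of the series was which genes depend on CD39.

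Cytosolic HSP70 proteins hold unfolded chains and use ATP to bind and release them. J-domain proteins, named DNAJ in human, bring substrates and start ATP hydrolysis, and BAG proteins and the HSP110 type (HSPA4, HSPA4L, HSPH1) exchange the nucleotide so that the chain is let go. HSPA9 does the same work in the mitochondrial matrix, where HSPD1 forms the folding cage, while HSPA5 and HSP90B1, neither of them analysed here, lead folding in the ER. HSF1 switches on the stress-inducible members by binding heat shock elements, which are repeats of GAA and its complement TTC in alternating direction.

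The promoter windows of HSPA1A, HSPA1B, HSPA6 and HSPA9 are shown because the first 3 are the classic stress-inducible HSP70 genes and HSPA9 was the member with the lowest p. Each window holds 300 bases, from 250 before to 50 after the start of the gene (RefSeq, GRCh38.p14). Capitals mark every match to GAANNTTC or TTCNNGAA, the 2-unit heat shock element, or to the 3-unit form, in which GAANNTTC is followed by NNGAA, on either strand. HSPA1A lies at chr6:31815293-31815592 on the plus strand and HSPA1B at chr6:31827488-31827787 on the plus strand. HSPA6 lies at chr1:161524290-161524589 on the plus strand and HSPA9 at chr5:138575352-138575651 on the minus strand.
HSPA1A: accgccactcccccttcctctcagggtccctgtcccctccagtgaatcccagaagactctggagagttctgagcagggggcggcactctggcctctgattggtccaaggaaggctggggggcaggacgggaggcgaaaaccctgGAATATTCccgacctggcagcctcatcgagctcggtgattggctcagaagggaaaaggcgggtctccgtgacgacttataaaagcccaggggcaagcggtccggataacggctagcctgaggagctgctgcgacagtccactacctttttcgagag
HSPA1B: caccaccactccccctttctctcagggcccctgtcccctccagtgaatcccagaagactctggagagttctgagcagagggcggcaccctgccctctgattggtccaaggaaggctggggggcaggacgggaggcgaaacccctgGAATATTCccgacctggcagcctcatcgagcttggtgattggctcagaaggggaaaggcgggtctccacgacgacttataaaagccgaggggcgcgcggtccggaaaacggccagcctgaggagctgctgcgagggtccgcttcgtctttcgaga
HSPA6: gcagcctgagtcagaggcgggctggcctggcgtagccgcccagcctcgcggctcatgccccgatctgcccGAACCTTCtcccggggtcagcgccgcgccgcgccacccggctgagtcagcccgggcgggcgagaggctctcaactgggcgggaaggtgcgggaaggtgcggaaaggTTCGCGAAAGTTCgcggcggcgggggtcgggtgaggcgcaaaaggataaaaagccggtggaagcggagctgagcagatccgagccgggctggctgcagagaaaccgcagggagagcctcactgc
HSPA9: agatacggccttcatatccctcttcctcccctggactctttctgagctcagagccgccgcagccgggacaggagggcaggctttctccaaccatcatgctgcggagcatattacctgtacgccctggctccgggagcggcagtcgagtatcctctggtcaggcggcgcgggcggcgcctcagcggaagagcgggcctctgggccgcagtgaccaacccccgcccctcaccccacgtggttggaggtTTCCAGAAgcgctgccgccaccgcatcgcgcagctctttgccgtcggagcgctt

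The HSPA1A and HSPA1B windows were identical at 277 of 299 aligned positions (92.6%), and the same 2-unit element began 106 bases before the start in HSPA1A and 105 in HSPA1B. In HSPA6 the 3-unit element began 74 bases before the start. The match in HSPA9 began 4 bases before the start and ran across it. A window was found for 18 of the 22 members, 23 windows in all. The 2-unit motif was in 11 of these 23 windows, against 13.5% of all 35116 windows in the table, and the 3-unit motif in 2 (HSPA6 and an alternative start of HSPD1), against 0.49% of all windows. The 3-unit form contains 2-unit matches, so its windows are counted under both. The windows of HSPA1A and HSPA1L, which point in opposite directions, share 241 bases, so the same match is counted for both genes. These matches describe the letters and not bound sites, and the windows of BAG3 and HSPH1, called inducible below, held no match.

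Values are the deposited log2 expression values, and each difference is the shCD39 mean less the shCTRL mean in log2 units, followed by its standard error (SE) from limma. RMA sets the arrays to a shared distribution, so each difference is relative to the bulk of probe sets. Array medians lay between 3.14 and 3.17 in shCD39 and between 3.13 and 3.16 in shCTRL, and their number limits the precision. ENTPD1 itself averaged 2.56 ± 0.35 in shCD39 and 3.34 ± 0.54 in shCTRL (SD, n = 4 arrays each), a difference of -0.79 (SE 0.25, limma adjusted p = 0.178) in groups that overlapped. Both means were under 4, the cut of the later filter on dim genes, so this check of the hairpin rests on a dim probe set. The shCD39 array 4 correlated at a mean of 0.979 with its own group and 0.984 with shCTRL, so results that rest on it are given with and without it. The shCD39 arrays 1 to 3 correlated at 0.979, 0.981 and 0.980 with their own group and at 0.978, 0.980 and 0.977 with shCTRL. Of the myeloid markers, 6 of 10 were named, with a mean of 7.79 to 8.27 over the shCD39 arrays and 7.59 to 7.74 over the shCTRL arrays. These 6 did not share a direction: CSF1R (1.36) and LYZ (1.07) were higher without overlap. FLT3 (-0.29) and MEIS1 (-0.28) had lower means and SPI1 (0.13) and LYN (0.02) higher ones, all in groups that overlapped. LYZ averaged 10.04 ± 0.58 in shCD39 and 8.98 ± 0.18 in shCTRL. Of the epithelial and fibroblast markers 6 of 10 were named, with a mean of 4.02 to 4.14 in shCD39 and 3.77 to 3.97 in shCTRL. All 6 had a higher mean in shCD39, with a median difference of 0.21. The differences were 0.29 for THY1, 0.25 for KRT8, 0.22 for EPCAM, 0.21 for KRT19, 0.05 for DCN and 0.01 for KRT18. EPCAM averaged 2.53 ± 0.08 in shCD39 and 2.31 ± 0.10 in shCTRL without overlap, and the others of this list overlapped. KRT18 averaged 7.33 ± 0.10 in shCD39 and 7.32 ± 0.10 in shCTRL (SD, n = 4 arrays each). Of all genes, 3.61% lay wholly higher and 4.23% wholly lower. Of the lymphoid markers 3 of 10 were named, with 5.26 to 5.52 in shCD39 and 5.12 to 5.43 in shCTRL, and they differed in direction: NKG7 was higher (0.50) and PAX5 lower (-0.27), both without overlap, and CD2 overlapped (0.03). No marker was at 0, and the lowest, DCN, averaged 1.47 ± 0.10 in shCD39 and 1.42 ± 0.08 in shCTRL. In a list of DNA replication and mitosis genes, the shCD39 mean was the lower one for 20 of 20, and the median difference was -0.58. The median of that list per array, as a deviation from the shCTRL mean, was -0.93 to -0.15 in shCD39 and -0.26 to 0.17 in shCTRL, with shCD39 array 4 at -0.15. The part of these lists in the chaperone values was not tested.

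No member passed the threshold of an adjusted p of 0.05 with all arrays, by limma with Benjamini-Hochberg adjustment over all genes, against 0.0941% of all genes (0.047% higher and 0.047% lower). At an unadjusted p under 0.05 there were 6 members, or 27.3% of 22, against 14.7% of all genes; 4 were higher (6.54% of all genes) and 2 lower (8.13% of all genes). The 6 were HSPA1A, HSPA1B, HSPA4L and HSPA6 on the higher side and HSPA9 and HSPA14 on the lower. HSPA1A and HSPA1B share most of their sequence and are not independent of each other. Of the 22 members 11 had a higher and 11 a lower mean in shCD39, and their median difference was 0.04, against 0.01 over all genes. The shCD39 and shCTRL values did not overlap in 1 member, HSPA9, which was lower (4.23% of all genes lay wholly lower, and 7.85% did not overlap in either direction).

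**Figure D1:**
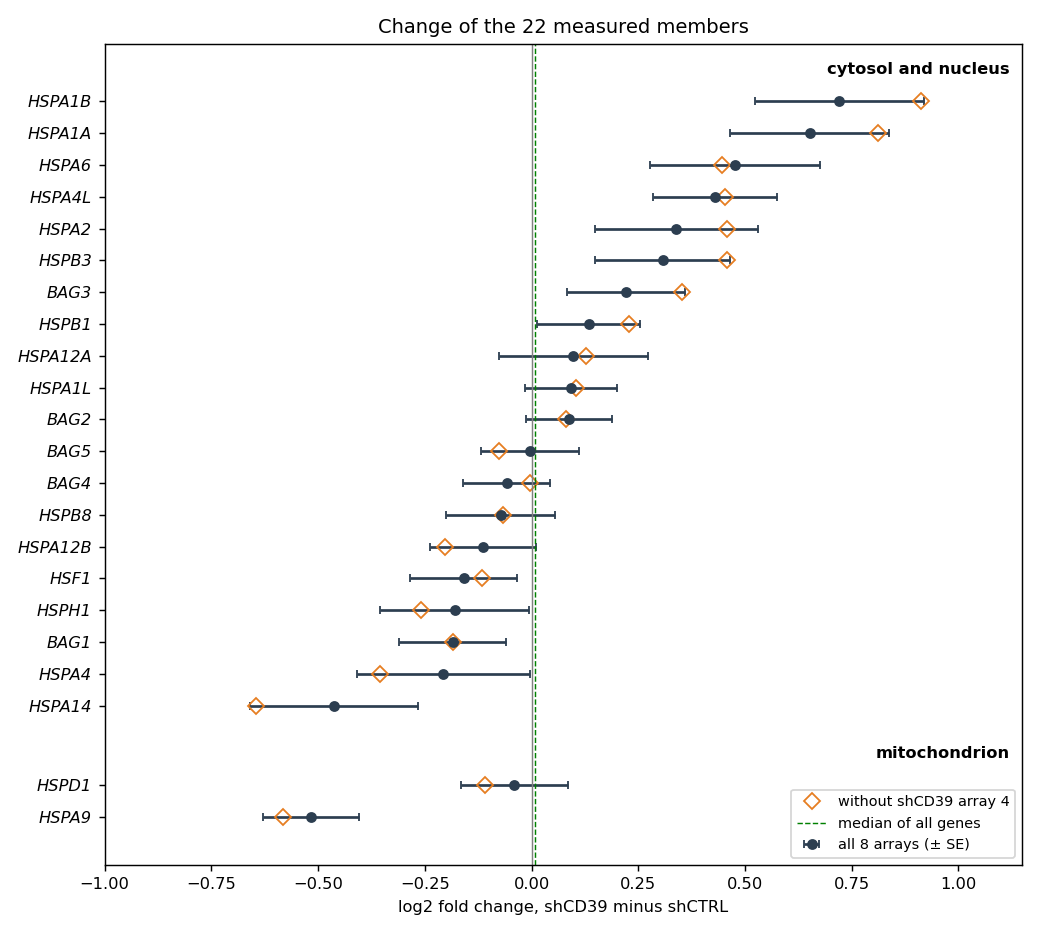
Log2 fold change (shCD39 minus shCTRL) of the 22 members, by compartment. Points with bars are the fit to all 8 arrays with its SE, open diamonds the fit without shCD39 array 4, and the dashed line is the median of all genes; HSPA1B (0.72) and HSPA1A (0.65) stand at the upper end and HSPA9 (-0.52) at the lower.

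The stress-inducible HSP70 genes had the largest positive differences among the members. HSPA1A, the main inducible cytosolic HSP70, read 8.0, 7.82, 8.12 and 7.34 in shCD39 arrays 1 to 4, against 6.87, 6.98, 7.33 and 7.50 in shCTRL arrays 1 to 4. The first 3 shCD39 arrays were above every shCTRL array, while shCD39 array 4 lay inside the shCTRL range. The difference was 0.65 (SE 0.19, 1.57-fold, limma adjusted p = 0.149, exact permutation p = 0.0571).

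HSPA1B, its near-identical neighbour on chromosome 6, read 8.34, 8.12, 8.32 and 7.50 in the shCD39 arrays, against 7.19, 7.02, 7.51 and 7.66 in the shCTRL arrays. Again the first 3 shCD39 arrays were above every shCTRL array, and shCD39 array 4 lay just below shCTRL array 3 (7.51) and below shCTRL array 4. Its difference was 0.72 (SE 0.20, 1.65-fold, limma adjusted p = 0.138, exact permutation p = 0.0857). Without shCD39 array 4 the differences were 0.81 for HSPA1A (limma adjusted p = 0.0293) and 0.91 for HSPA1B (limma adjusted p = 0.0181), both past the threshold. In that fit 3 of 22 members passed, against 2.84% of all genes; 2 were higher (0.746% of all genes) and 1, HSPA9, lower (2.1% of all genes). Without both arrays numbered 4 the same 3 members passed, against 2.47% of all genes (0.618% higher and 1.85% lower). The shCD39 array 4 was singled out for its likeness to shCTRL. Fits without it therefore tend to larger differences and are no independent support.

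Each of the 2 genes had 5 probe sets, of which 3 of HSPA1A gave identical values. The differences over the probe sets ran from 0.65 to 0.69 for HSPA1A and from 0.69 to 0.84 for HSPA1B. In 4 of the 5 probe sets of HSPA1A and in all 5 of HSPA1B, shCD39 array 4 read below shCTRL array 4. Because the coding parts of the 2 genes are nearly the same, the array cannot assign the signal to 1 of them. HSPA1L, the testis-type HSP70 next to HSPA1A, read 3.99, 4.16, 4.37 and 4.13 in shCD39 and 4.03, 4.12, 4.06 and 4.08 in shCTRL. Its groups overlapped and its difference was 0.09 (SE 0.11, limma adjusted p = 0.755). Over its 5 probe sets the difference ran from 0.09 to 0.21.

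**Figure D2:**
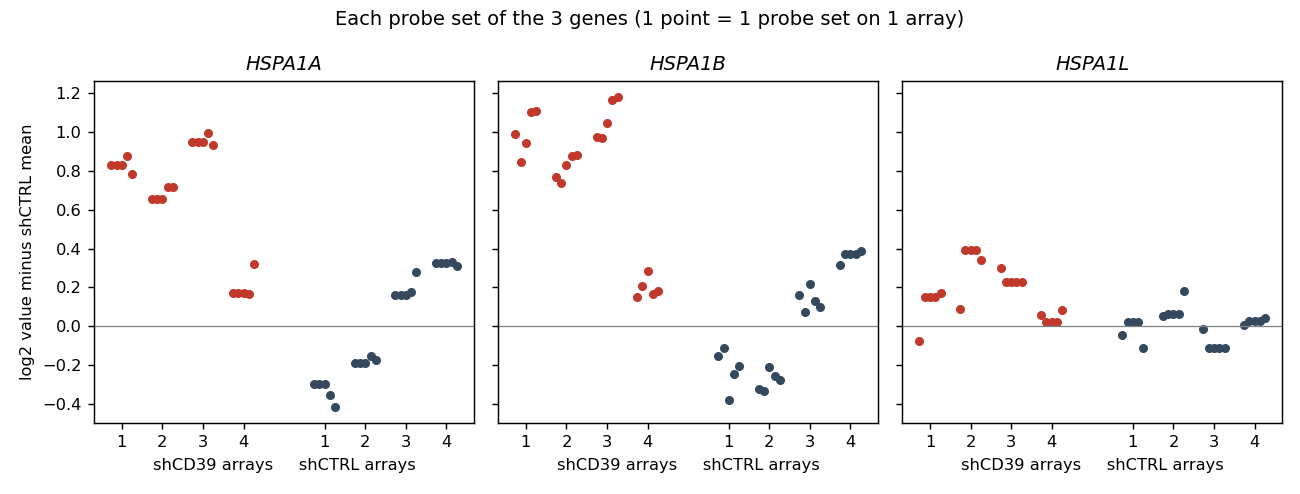
Each probe set of HSPA1A, HSPA1B and HSPA1L on each array, as the log2 value minus the mean of that probe set over the shCTRL arrays. The first 3 shCD39 arrays stand high on every probe set of HSPA1A and HSPA1B, and shCD39 array 4 reads close to shCTRL arrays 3 and 4; the HSPA1L differences are 0.09 to 0.21.

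HSPA6, an HSP70 that is nearly silent without stress, read 4.45, 3.89, 3.52 and 4.07 in shCD39, against 3.07, 3.63, 3.57 and 3.77 in shCTRL. Its mean over all arrays was 3.75, in the dim range, and the filter at a mean of 4 removes it. The shCD39 array 3 lay inside the shCTRL range and the other 3 above it. The difference was 0.48 (SE 0.20, limma adjusted p = 0.296, exact permutation p = 0.114), and 0.32 without shCD39 array 1. HSPA7, a pseudogene closely related to HSPA6, was left out by the rule; it read 3.12 ± 0.41 in shCD39 and 3.22 ± 0.53 in shCTRL (SD, n = 4 each).

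HSPA2, an HSP70 of the testis, averaged 3.67 ± 0.36 in shCD39 and 3.33 ± 0.30 in shCTRL (difference 0.34, SE 0.19), in the dim range of the array. HSPA14, an HSP70 that works with a J-domain partner at the ribosome, read 5.76, 6.28, 5.59 and 6.61 in shCD39, against 6.47, 6.51, 6.43 and 6.68 in shCTRL. Here 3 of the shCD39 arrays lay below every shCTRL array and array 4 within their range. The difference was -0.46 (SE 0.20, limma adjusted p = 0.305, exact permutation p = 0.114), with -0.30 without shCD39 array 3 and -0.65 without shCD39 array 4 (limma adjusted p = 0.0611). The remaining HSP70 members, HSPA12A at 0.10 (SE 0.17) and HSPA12B at -0.11 (SE 0.12), had overlapping groups, and HSPA12B stood at -0.20 without shCD39 array 4. The 2 probe sets of HSPA12A differed in direction, at -0.06 and 0.10.

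**Figure D3:**
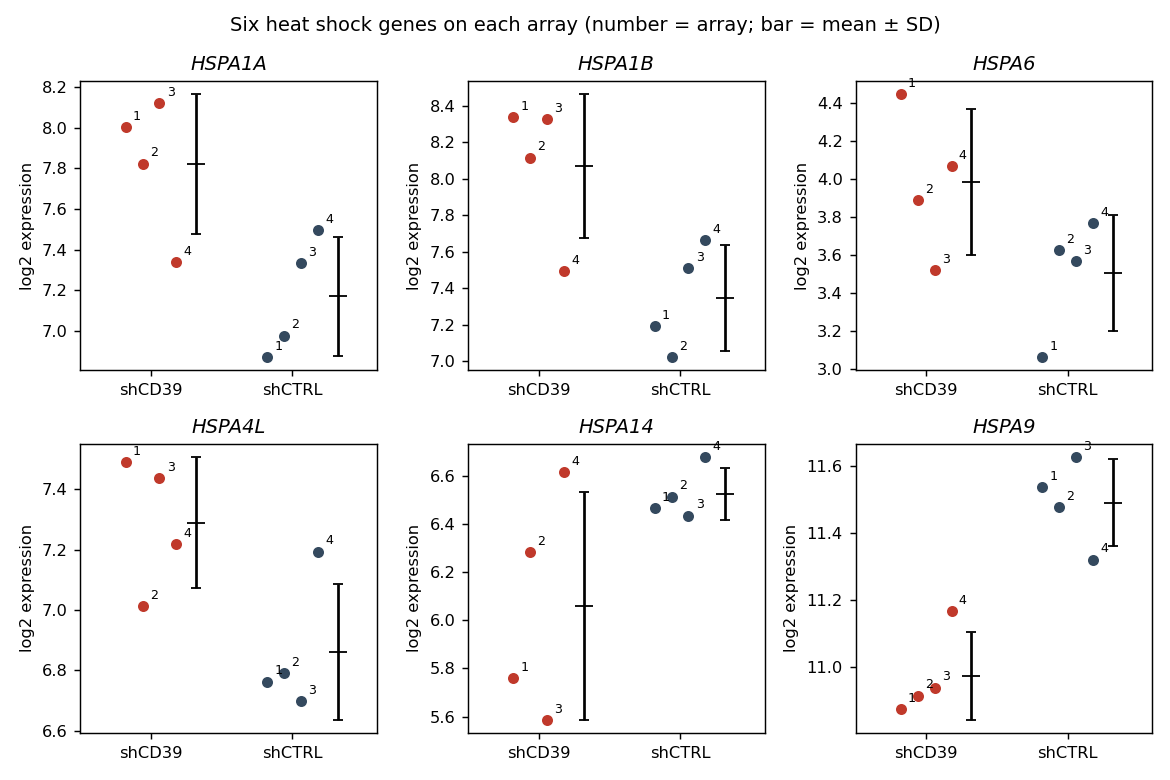
Log2 expression of the 6 members with an unadjusted p under 0.05 on each array, shCD39 to the left of shCTRL. Numbers are array numbers and bars are mean ± SD; HSPA9 is the member whose groups are apart (10.88 to 11.17 in shCD39, 11.32 to 11.63 in shCTRL).

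The 3 HSP110-type exchange factors did not share a direction. HSPA4L read 7.49, 7.01, 7.44 and 7.22 in shCD39, against 6.76, 6.79, 6.70 and 7.19 in shCTRL. Its groups overlapped through shCD39 array 2 and shCTRL array 4, and its difference was 0.43 (SE 0.15, 1.35-fold, limma adjusted p = 0.202, exact permutation p = 0.0571). HSPA4, the constitutive member, averaged 8.37 ± 0.44 in shCD39 and 8.57 ± 0.23 in shCTRL, and HSPH1, the member induced by heat, averaged 9.16 ± 0.31 in shCD39 and 9.34 ± 0.28 in shCTRL (SD, n = 4 arrays each). The difference was -0.21 for HSPA4 (SE 0.20, limma adjusted p = 0.700) and -0.18 for HSPH1 (SE 0.18, limma adjusted p = 0.699). Both depended on single arrays: HSPA4 ran from -0.36 without shCD39 array 4 to -0.06 without shCD39 array 1, and HSPH1 from -0.27 without shCD39 array 2 to -0.05 without shCTRL array 4.

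Among the small heat shock proteins, which keep unfolded chains from clumping without using ATP, HSPB1 read 10.13, 10.06, 10.06 and 9.71 in shCD39, against 9.83, 10.01, 9.83 and 9.76 in shCTRL. The first 3 shCD39 arrays were the highest of all 8 and shCD39 array 4 the lowest. The difference of HSPB1 was 0.13 (SE 0.12, limma adjusted p = 0.670), and 0.23 without shCD39 array 4 (limma adjusted p = 0.288). The difference of HSPB3 was 0.31 (SE 0.16) and became 0.46 when shCD39 array 4 was left out. For HSPB8 it was -0.07 (SE 0.13). HSPB3 averaged 2.08 ± 0.30 in shCD39 and 1.77 ± 0.19 in shCTRL, and HSPB8 2.01 ± 0.09 in shCD39 and 2.09 ± 0.23 in shCTRL (SD, n = 4 arrays each), in the dim range of the array.

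HSF1 read 6.82, 6.52, 6.68 and 6.50 in shCD39, against 6.87, 6.94, 6.83 and 6.52 in shCTRL, with overlapping groups and a difference of -0.16 (SE 0.13, limma adjusted p = 0.613). Of the BAG genes, BAG3, a co-chaperone that HSF1 is known to induce, read 5.29, 5.22, 5.20 and 4.71 in shCD39, against 4.73, 4.91, 4.89 and 5.00 in shCTRL. As with HSPB1, the first 3 shCD39 arrays were above all shCTRL arrays and shCD39 array 4 was the lowest of all 8. The difference of BAG3 was 0.22 (SE 0.14, limma adjusted p = 0.508), and 0.35 without shCD39 array 4 (limma adjusted p = 0.111).

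BAG1, which joins HSP70 to the proteasome, had a difference of -0.18 (SE 0.13). BAG2, which slows the hand-over of HSP70 clients to the ubiquitin ligase CHIP, had 0.09 (SE 0.10). BAG4, which blocks death receptor signalling, had -0.06 (SE 0.10), and BAG5, with several BAG domains, -0.0028 (SE 0.11). The groups overlapped in all 5 BAG genes, and the sign of BAG4 and BAG5 changed with the normalization.

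The mitochondrial HSP70, HSPA9 (mortalin), which pulls imported chains into the matrix and folds them, had the lowest p of the 22 members. It read 10.88, 10.91, 10.94 and 11.17 in shCD39, against 11.54, 11.48, 11.63 and 11.32 in shCTRL. All 4 shCD39 values were below all 4 shCTRL values, and shCD39 array 4 and shCTRL array 4 were the closest to the other group. The difference was -0.52 (SE 0.11, 1.43-fold lower, limma adjusted p = 0.0877). The exact permutation p was 0.0286, the smallest that 4 against 4 arrays allow. Leaving out any single array gave differences of -0.58 to -0.47. Without shCD39 array 4 HSPA9 passed (limma adjusted p = 0.0247). When limma weighted the arrays it was the member that passed (limma adjusted p = 0.0488), against 0.833% of all genes. The lowest weight was that of shCD39 array 4 (0.63), so this is no separate support. With the replicate block HSPA9 did not pass (limma adjusted p = 0.148).

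HSPD1, the mitochondrial chaperonin, read 7.96, 8.09, 8.12 and 8.34 in shCD39, against 8.07, 8.10, 8.07 and 8.44 in shCTRL. Its groups overlapped, with a difference of -0.04 (SE 0.13, limma adjusted p = 0.921) whose sign depended on the normalization.

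By compartment, the 20 cytosolic and nuclear members were higher in 11 and lower in 9, with a median difference of 0.09 and a range of -0.46 to 0.72. Over all genes the median was 0.01, the 10th to 90th percentiles were -0.28 to 0.26, and 52% were higher. The 2 mitochondrial members were both lower, with a median of -0.28, the midpoint of -0.52 for HSPA9 and -0.04 for HSPD1. The median deviation per array was 0.05 to 0.09 in shCD39 and -0.11 to 0.11 in shCTRL for the cytosolic members, which lay within the spread of the shCTRL arrays. For HSPA9 and HSPD1 it was -0.41, -0.33, -0.30 and -0.08 in shCD39 arrays 1 to 4 and -0.04 to 0.05 in shCTRL. The difference between the compartments was not tested, as members were chosen with results known.

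Folding genes outside the symbol rule were taken from 4 lists written by function. None of their genes passed limma's threshold over all genes; at an unadjusted p under 0.05 there were 2 in the ER list, 1 in the mitochondrial list and 0 in the other lists. As shares of the measured genes these are 16.7% for the ER list and 11.1% for the mitochondrial list, against 14.7% of all genes, so neither stands far from the background. Of the other partners of HSP70 and HSP90, 13 of 20 were measured, 7 higher and 6 lower, with a median of 0.04. TOMM70, the mitochondrial import receptor that takes clients from cytosolic chaperones, had -0.27 (SE 0.12), UNC45A, an HSP90 partner of myosin folding, 0.25 (SE 0.12), and NUDC, also an HSP90 co-chaperone, -0.19 (SE 0.12). GAK, a J-domain protein of this list, uncoats clathrin vesicles. It averaged 6.23 ± 0.05 in shCD39 and 6.09 ± 0.06 in shCTRL without overlap, and 3.61% of all genes lay wholly higher. The difference of GAK was 0.14 (SE 0.10, limma adjusted p = 0.557). Of the TRiC chaperonin and its partner prefoldin, 6 of 14 were measured, all of them prefoldin subunits, 2 higher and 4 lower with a median of -0.04. The prefoldin subunit PFDN2 had -0.30 (SE 0.15), PFDN5 0.17 (SE 0.12) and PFDN4 -0.19 (SE 0.15).

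In the ER list 12 of 19 genes were measured, 6 higher and 6 lower, with a median of 0.01. SEC63, a J-domain protein of the translocon, averaged 9.24 ± 0.17 in shCD39 and 9.51 ± 0.06 in shCTRL (difference -0.27, SE 0.11, limma adjusted p = 0.288). CRELD2, an ER stress protein, averaged 5.16 ± 0.11 in shCD39 and 4.91 ± 0.10 in shCTRL in groups that did not overlap (difference 0.24, SE 0.10, limma adjusted p = 0.313; 3.61% of all genes lay wholly higher). SDF2L1, a partner of the ER HSP70 system, had 0.20 (SE 0.11).

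In the mitochondrial list 9 of 14 were measured, 1 higher and 8 lower, with a median of -0.14. TIMM44, which tethers HSPA9 to the import channel, averaged 7.69 ± 0.16 in shCD39 and 8.08 ± 0.22 in shCTRL (difference -0.39, SE 0.13, limma adjusted p = 0.206). TRAP1, the mitochondrial HSP90, averaged 9.19 ± 0.05 in shCD39 and 9.40 ± 0.12 in shCTRL in groups that did not overlap (difference -0.21, SE 0.10, limma adjusted p = 0.385). YME1L1, a protease of the inner membrane, averaged 9.44 ± 0.06 in shCD39 and 9.59 ± 0.04 in shCTRL, also without overlap (difference -0.14, SE 0.10, limma adjusted p = 0.534). Of all genes, 4.23% lay wholly lower. HSCB, a J-domain protein of iron-sulfur cluster assembly, had -0.24 (SE 0.15). The median deviation of the list was -0.14, -0.11, -0.18 and -0.19 in shCD39 arrays 1 to 4, against -0.04 to 0.02 over the shCTRL arrays. On this median shCD39 array 4 was the lowest of the 8 arrays, close to shCD39 array 3. The named genes did not share this place. Within shCD39, array 4 read highest for TIMM44 (7.84) and YME1L1 (9.51), lowest for TRAP1 (9.13) and between the others for HSCB (4.95).

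**Figure D4:**
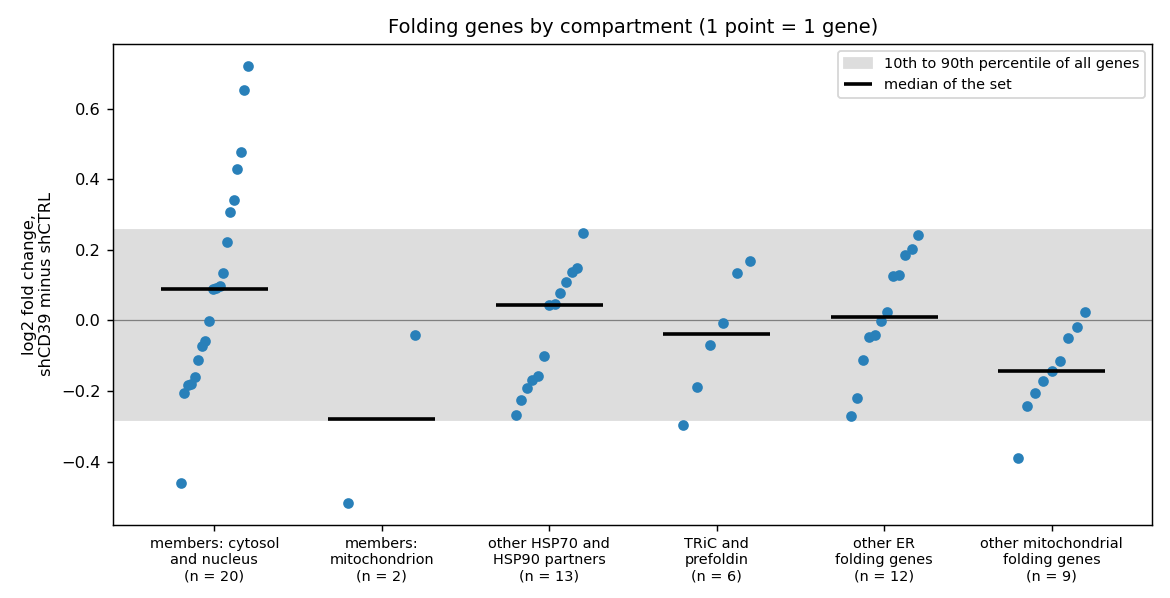
Log2 fold change (shCD39 minus shCTRL) of the members by compartment and of the 4 further lists of folding genes, with 1 point per gene and a bar at the median. The grey band spans the 10th to 90th percentile of all genes (-0.28 to 0.26); the medians run from -0.28 for the 2 mitochondrial members to 0.09 for the 20 cytosolic and nuclear ones.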

How the data were processed

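The values are log2 expression per probe set on 8 arrays, deposited by the authors. RMA from the oligo package produced them, per the submitters' processing notes, which name no version. The array model is not stated in the labels. Per the labels' protocols, RNA was labelled with the GeneChip WT PLUS kit.

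Of 53617 probe sets, 16098 had a symbol in the platform annotation, each with 1 symbol; all matched the RefSeq table (GRCh38.p14) by Entrez ID and 0 needed an update. Each of 14884 genes was represented by its brightest probe set, judged on the average of the 8 arrays, and no dim genes were removed.

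Groups were compared with limma 3.58.1 in R 4.3.3 (lmFit, eBayes), 2-sided, and p-values were adjusted by Benjamini-Hochberg across the 14884 genes. The exact permutation test of single genes was 2-sided too and cannot go below 0.0286. Motif counts and summaries used Python 3.11.15 and figures matplotlib 3.10.9.

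Members and lists were chosen with earlier results of these data known. Named first were members past the threshold or with groups apart, the 4 with the lowest p in each compartment, members called when an array was left out, HSF1 and the BAG genes, and up to 3 genes per list; the other members were named to account for all. GAK, YME1L1, KRT18, KRT19, DCN, MEIS1, SPI1 and LYN fall outside this rule and were picked with their values in view. Readthrough genes and HSPBAP1, whose symbol only resembles the family's, were not members.

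Alternatives were normalization by quantiles, array medians or cyclic loess, keeping genes with a mean of at least 4, averaging probe sets, a robust eBayes prior with trend, weighting arrays, blocking on the replicate number, a minimum of 1.5-fold and leaving out each array. Leaving out both arrays numbered 4 was chosen after seeing the data. In a simulation of shCD39 against shCTRL over 14884 genes, 30% of genes changed by a log2 of 0.5 were recovered, 98% at 1, 94% at -1 and 100% at 2, with 6 false calls among the unchanged genes. The simulation drew independent normal noise, with the same spread of a gene on every array. The limma weights of the real arrays ran from 0.63 (shCD39 array 4) to 1.44 (shCTRL array 2), so these rates may not hold for them.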

Additional observations from a re-analysis of the deposited data

Results flagged for a closer look

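In 76 groups of 4 arrays (38 genes), 6 held an array that stood apart from the other 3 of its group by Dixon's test, which chance does in about 1 group of 20. The shCD39 array 4 was the one apart for 4 of them. There BAG3 read 4.71, against 5.20 to 5.29 in the other shCD39 arrays. HSPB1 read 9.71, against 10.06 to 10.13. HSPB3 read 1.63, against 2.19 to 2.29, and SEC63 read 9.48, against 9.14 to 9.19. In shCTRL, HSPD1 read 8.44 on array 4, against 8.07 to 8.10 on the others, and SEC63 read 9.42 on array 2, against 9.53 to 9.54.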

How the results depend on the processing

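The number of members past the threshold was 0 with all arrays and 0 to 3 when single arrays were left out: 3 without shCD39 array 4 (HSPA1A, HSPA1B, HSPA9), and 0 without any of the other 7 in turn. It was 1 with array weights (HSPA9) and 3 without both arrays numbered 4. It was 0 under the other alternatives, the replicate block included. The minimum of 1.5-fold was set on top of the threshold with all arrays, so it could only give 0. The cause of the changes in this number was not tested. Counts of all genes moved as well: 14 with all arrays, 423 without shCD39 array 4, 48 without shCTRL array 4, 124 with array weights, 44 with the filter on dim genes and 5 with quantile normalization. With the replicate block it was 6. Over all genes, the deviations of same-numbered arrays were nearly uncorrelated (-0.01, -0.04, 0.05 and 0.06). Some genes did share an order: in the replication and mitosis list, array 3 was lowest and array 4 highest in both groups. Their list medians were -0.93 and -0.15 in shCD39 and -0.26 and 0.17 in shCTRL. The replicate block lowered the SE of HSPA4 from 0.20 to 0.14 and raised that of HSPA9 from 0.11 to 0.13. Whether the numbers mark pairs was not tested.

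The median of the cytosolic and nuclear members was 0.09, but -0.0028 with the filter on dim genes, which leaves 15 of the 20, and 0.014 to 0.11 when single arrays were left out, lowest without shCTRL array 1. The mitochondrial median stayed between -0.35 and -0.22 in every alternative. It is the midpoint of 2 genes: HSPA9 stayed negative throughout, while HSPD1 changed sign in 4 alternatives. Its steadiness is therefore that of HSPA9 and does not describe the compartment. Of 385 values of 23 genes, 14 changed sign. BAG4 was 0.027 with quantile normalization and 0.0044 with cyclic loess, BAG5 0.066 and 0.056, and HSPD1 0.039 and 0.031. With arrays left out, BAG5 ran from -0.077 to 0.052, HSPD1 from -0.11 to 0.049, HSPA12A from -0.075 to 0.21 and HSPB8 from -0.13 to 0.037. HSPA1A ran from 0.55 to 0.81, HSPA1B from 0.61 to 0.91 and HSPA9 from -0.58 to -0.47, and without both arrays numbered 4 they were 0.92, 1.02 and -0.64. No alternative could be run for the ER, which had 0 members. The 5 members with a mean under 4 (HSPA2, HSPA6, HSPA12A, HSPB3 and HSPB8) lie in the dim range.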
